A study of Mus musculus with 5 samples.

Results

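Interleukin-6 (IL-6) family cytokines and the genes that NF-kB switches on were followed in cells sorted from mouse liver. The 10 genes were taken as a named list, with no threshold on a measured value: the ligands Il6, Lif and Il33, the receptors Il6st, Osmr and Il1r1, the transducer Stat3, and the feedback genes Socs3, Nfkbia and Tnfaip3. They were 10 of the 31053 genes in the count matrices, and all 10 were found there by symbol. IL-6 and LIF act through gp130, the receptor subunit encoded by Il6st, and gp130 activates the transcription factor STAT3, which in turn switches on Socs3, an inhibitor of the same receptor. Interleukin-1 acts through IL1R1 to release NF-kB from its inhibitor IκBα, the product of Nfkbia, and NF-kB then induces Nfkbia and Tnfaip3 (A20) as brakes on itself. Hepatic stellate cells (HSC) and portal fibroblasts (PF) are known as sources of such cytokines in injured liver, while sinusoidal endothelial cells and macrophages are known to respond to them.

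Single-cell RNA sequencing had been performed on 5 sorted fractions, 1 library each, from male Rosa26mTmG;Col1a1-Cre mice on a C57BL/6J background. Every animal carried the reporter and the Cre, so that green cells were those in which the Col1a1 promoter driving Cre had been active at some time, whatever their Col1a1 level at harvest. Diseased mice had been given diethyl nitrosamine (DEN, 10 mg/kg) at 2 weeks of age and then a liquid Western alcohol diet (WAD, 3.5% ethanol by volume) for 5 months from 6 weeks of age, and control mice had been given saline and chow over the same times. Cells were gated by vitamin A (VitA) fluorescence and by the reporter. Each regimen gave 1 library of VitA+Col1a1+ and 1 of VitA-Col1a1+ cells, called VitA+ and VitA- for short, and the last library, of DEN+WAD liver, bore the label VitA-Col1a1-. How many mice went into a library was not given in the sources used here. With 1 library in a group there was no replicate check, no test was possible, and every interval given is a 95% interval that covers counting error only.

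Promoter sequences were examined for all 10 genes because both pathways act there. Of the 13 start sites listed by RefSeq for them on GRCm38.p6, 5 (of Il6, Lif, Tnfaip3, Nfkbia and the second listed start of Il1r1) had the 10-letter NF-kB consensus in the 250 bases before the start, on either strand, against 7.25% of 32851 promoters of the same length. The STAT motif TTCNNNGAA stood in the window of Socs3 alone among the 10 genes, against 7.02% of all promoters. The windows of Il6 and Nfkbia are shown whole, as those of a ligand and a feedback gene with a match within 50 bases of the start. No base of either window lay inside its own GENCODE M21 gene, and other genes were not checked. For Tnfaip3 (2 matches), Lif and Socs3 only the 30 bases around the match are shown. Of their 250-base windows, 247, 11 and 250 bases lay inside their own GENCODE M21 genes. Capitals mark the matches, and all run 5′ to 3′ on the strand of the gene.
Il6, chr5:30012864-30013113, + strand: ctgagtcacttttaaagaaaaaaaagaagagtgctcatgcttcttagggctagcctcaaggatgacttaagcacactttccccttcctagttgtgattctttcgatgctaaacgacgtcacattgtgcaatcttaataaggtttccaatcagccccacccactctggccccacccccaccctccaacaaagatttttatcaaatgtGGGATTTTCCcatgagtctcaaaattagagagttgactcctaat
Nfkbia, chr12:55492648-55492897, - strand: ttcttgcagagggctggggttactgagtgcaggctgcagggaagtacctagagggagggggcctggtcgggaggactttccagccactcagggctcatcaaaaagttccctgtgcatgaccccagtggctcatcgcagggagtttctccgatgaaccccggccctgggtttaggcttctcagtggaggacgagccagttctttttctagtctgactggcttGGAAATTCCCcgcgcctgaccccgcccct
Tnfaip3, chr10:19015516-19015545, - strand: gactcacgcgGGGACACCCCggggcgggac
Tnfaip3, chr10:19015411-19015440, - strand: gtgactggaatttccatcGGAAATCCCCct
Lif, chr11:4257380-4257409, + strand: atcaagtacaGGGACGCCCCctccccacac
Socs3, chr11:117969501-117969530, - strand: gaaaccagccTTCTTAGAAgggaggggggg
The Il6 match lay 44 to 35 bases before the start, the Nfkbia match 29 to 20 bases, the Tnfaip3 matches 125 to 116 and 12 to 3 bases, the Lif match 178 to 169 bases and the Socs3 match 154 to 146 bases. A match in these windows is a run of letters and not a measured binding site. Il6st, Stat3, Osmr and Il33 had no match of either motif in their windows. In GENCODE M21 all 10 are protein-coding genes, among them Il6 on chromosome 5 (30013114 to 30019981, plus strand), Il6st on chromosome 13 (112464070 to 112510086, plus strand) and Socs3 on chromosome 11 (117966079 to 117970047, minus strand).

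The libraries held 259 to 10481 cells and 6145748 to 149936344 UMIs (unique molecular identifiers, each a captured RNA molecule). Chow cells were read more deeply, with a median of 24077 UMIs a cell against 13232 for the VitA+ gate and 22208.5 against 16696 for the VitA- gate. Levels are given as CPM, the UMIs of a gene per 1000000 UMIs of the cells summed. The stellate marker Lrat was found in all 5 libraries, from 380 to 1931 CPM. Col1a1 stood at 1062 CPM in the library labelled VitA-Col1a1-, above the 304 and 99.4 of the VitA+ libraries from DEN+WAD and chow liver. This library therefore went against its label and is called by its label only, and no diet comparison used it. Mesenchymal cells, those with 20 or more summed Dcn, Col3a1 and Colec11 UMIs per 10000, made up 97.9%, 95.4%, 81.1%, 92.1% and 52.6% of the VitA+ DEN+WAD, VitA+ chow, VitA- DEN+WAD, VitA- chow and labelled VitA-Col1a1- libraries. Any 2 libraries shared at most 21 cell barcodes.

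Il6 encodes the founding cytokine of the family. Its level was 0.914 (0.767 to 1.08) CPM in the VitA+ DEN+WAD library, 5.44 (4.80 to 6.14) in VitA- DEN+WAD, 9.47 (7.98 to 11.2) in VitA- chow and 7.22 (6.72 to 7.75) in the library labelled VitA-Col1a1-. No Il6 UMI was found in VitA+ chow, whose total of 6145748 UMIs allows a level of up to 0.488 CPM at 3 UMIs. Il6 was thus rare in every library and lowest in the vitamin A-storing gate. Lif, a second gp130 ligand, was at 1.91 and 0.488 CPM in the VitA+ DEN+WAD and chow libraries, the latter from 3 UMIs, at 4.87 and 9.47 in the VitA- pair and at 5.24 in the labelled VitA-Col1a1- library. Its order over the 4 Col1a1+ libraries was the order of Il6. Il33, an alarmin of the interleukin-1 family, was at 50.3 and 44.4 CPM in the VitA+ pair, 40.2 and 49.8 in the VitA- pair and 27.5 in the labelled VitA-Col1a1- library. It did not share the low level of Il6 and Lif in the VitA+ gate.

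Among the receptors, Il6st was at 474 CPM in VitA+ DEN+WAD, 614 in VitA+ chow, 411 in VitA- DEN+WAD, 278 in VitA- chow and 649 in the labelled VitA-Col1a1- library. None of these intervals overlapped. Osmr, which pairs with gp130 to bind oncostatin M, was at 36.5 and 40.7 CPM in the VitA+ pair, 51.8 and 58.5 in the VitA- pair and 87.4 in the labelled VitA-Col1a1- library. It was higher in each VitA- library than in either VitA+ library. Il1r1, the signalling receptor for interleukin-1, stayed between 93.7 and 114 CPM in all 5 libraries.

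Stat3 also varied little, from 123 CPM in VitA- chow to 148 in the labelled VitA-Col1a1- library. Socs3 was at 354 and 288 CPM in the VitA+ DEN+WAD and chow libraries, 424 and 272 in the VitA- pair and 289 in the labelled VitA-Col1a1- library. Nfkbia was at 518 and 409, 501 and 354, and 387 CPM in the same order. Both feedback genes were higher in the DEN+WAD library than in the chow library of each gate. Tnfaip3 was at 14.5 and 11.7, 20.7 and 13.9, and 45.8 CPM, highest in the library with the lowest share of mesenchymal cells.

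**Figure D1:**
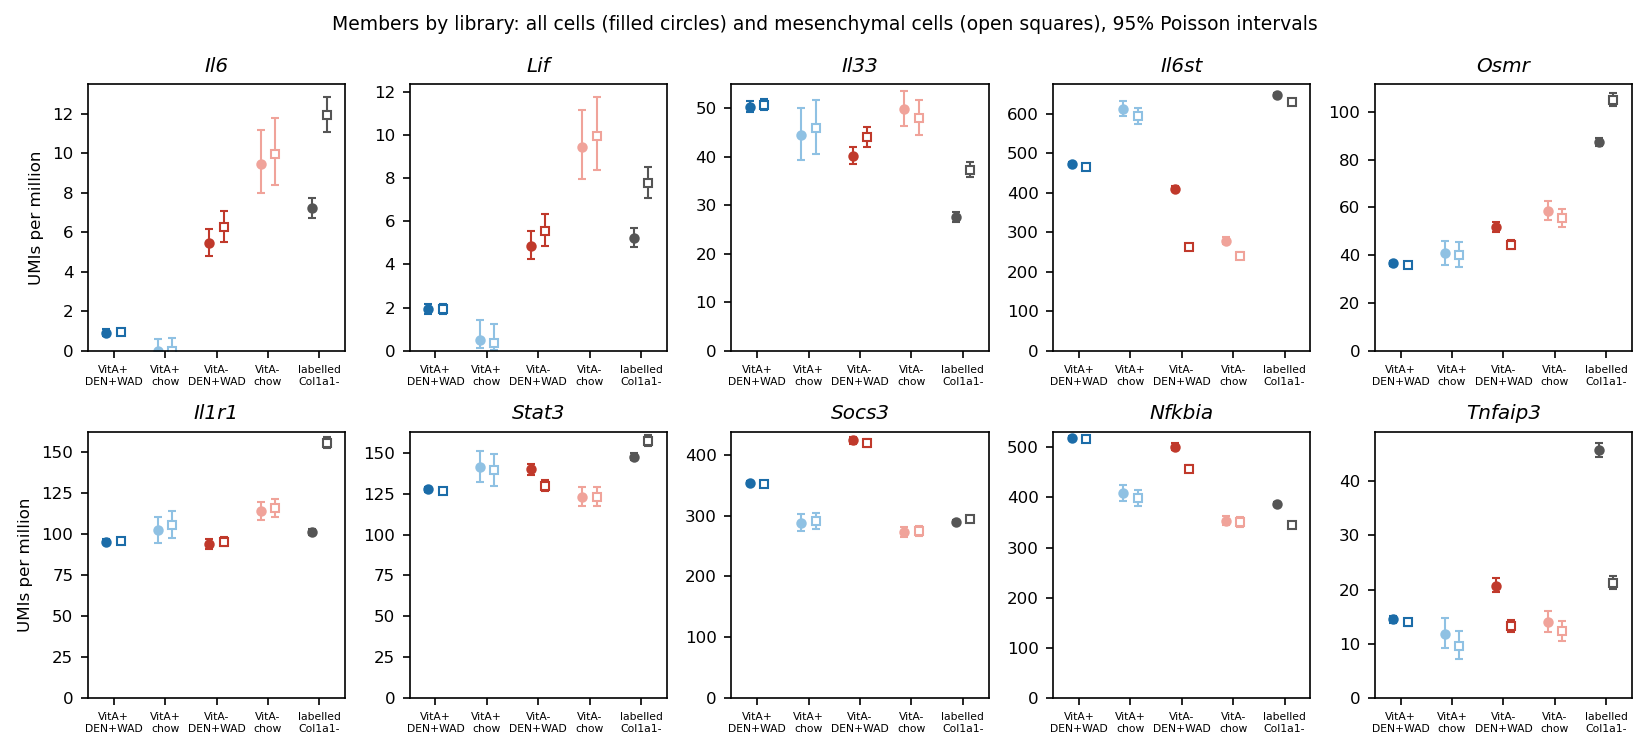
Level of each gene in CPM (y axes from 0, scales differ) in the 5 libraries (x axis), over all cells (filled circles) and over mesenchymal cells (open squares), with 95% Poisson intervals for counting error. Il6 and Lif sit below 2 CPM in both VitA+ libraries, while Socs3 and Nfkbia are higher in DEN+WAD than in chow in each gate.

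The comparison of DEN+WAD with chow asked how the disease regimen shifted these genes in each Col1a1+ gate. In mesenchymal cells, Socs3 and Nfkbia were higher in DEN+WAD in both gates, Il1r1 was lower in both (not in VitA+ with TMM scaling), and Il6 and Lif were lower in the VitA- gate, yet no gene of the 10 differed by 2-fold or more among those kept (a mean of 5 or more CPM over the pair). In the VitA+ libraries 8 of 10 genes were kept and 0 passed in either direction, where 0.97% of 9592 genes were 2-fold or more higher and 3.11% lower. In the VitA- libraries all 10 were kept and 0 passed, against 4.39% higher and 4.94% lower of 10241 genes. Restricted to mesenchymal cells, 0 passed in both gates, where the background was 1.03% higher and 2.38% lower in VitA+ and 2.7% higher and 4.81% lower in VitA-. The median log2 ratio of the kept genes in mesenchymal cells was 0.01 in VitA+ and -0.02 in VitA-, beside -0.06 and -0.08 over all genes kept. TMM scaling, which assumes that most genes do not differ, moved every log2 ratio in mesenchymal cells up by 0.16 in VitA+ and 0.13 in VitA-. Of the genes past 2-fold over all genes kept, it changed the share that was higher in DEN+WAD from 30.2% to 46.6% in VitA+ and from 36.0% to 47.8% in VitA-. Over whole VitA+ libraries that share went from 23.8% to 42.9%.

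Socs3 in mesenchymal cells was at 352 CPM against 291 in the VitA+ gate, a ratio of 1.21 (1.16 to 1.27), and at 419 against 274 in the VitA- gate, a ratio of 1.53 (1.47 to 1.58). Nfkbia was at 515 against 399, a ratio of 1.29 (1.24 to 1.35), and at 457 against 350, a ratio of 1.30 (1.26 to 1.35). Tnfaip3 was at 14.0 against 9.60 in VitA+, a ratio of 1.45 (1.12 to 1.93), and at 13.2 against 12.3 in VitA-, where the interval of the ratio (0.905 to 1.28) held 1. All 3 are induced quickly by tissue dissociation as well as by cytokines, so an immediate-early and dissociation list of 18 genes was read beside them. Its summed level in mesenchymal cells was 35775 CPM in DEN+WAD against 41752 in chow in the VitA+ gate, and 29536 against 21853 in the VitA- gate. In the latter 4 of 18 genes, with Hspa1a at 2069 against 442, were 2-fold or more higher, beside 2.7% of all genes kept. The list moved the other way from Socs3 and Nfkbia in VitA+ and with them in VitA-, and its part in their levels was not tested.

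The ligands could be compared in the VitA- gate. Il6 in mesenchymal cells was at 6.26 CPM in DEN+WAD against 9.98 in chow, a ratio of 0.628 (0.509 to 0.777), and Lif at 5.55 against 9.98, a ratio of 0.556 (0.449 to 0.691). In the VitA+ gate both fell under the filter. Il6 there was 137 UMIs in DEN+WAD against 0 in chow. It was 1.83-fold higher when chow is set to its floor of 3 UMIs over the mesenchymal cells, with an exact interval of the ratio from 1.47 upward. Lif was 286 UMIs against 2, a ratio of 5.74 with an interval of 1.57 to 47.6. Il33 differed little, with ratios of 1.11 (0.980 to 1.25) in VitA+ and 0.916 (0.838 to 1.002) in VitA-.

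Il6st went opposite ways in the 2 gates. In mesenchymal cells it was at 464 CPM in DEN+WAD against 594 in chow in VitA+, a ratio of 0.782 (0.756 to 0.809), and at 263 against 241 in VitA-, a ratio of 1.09 (1.05 to 1.14). Over whole VitA- libraries the ratio was 1.47 (1.43 to 1.53), and Pecam1-positive cells, which carried far more Il6st, were 16.0% of that DEN+WAD library against 5.69% of the chow library. Osmr was lower in VitA- mesenchymal cells, at 44.4 against 55.4 CPM (ratio 0.801, 0.736 to 0.872), and its ratio of 0.895 (0.786 to 1.02) in VitA+ had an interval that held 1. Il1r1 was at 95.7 against 105 in VitA+ (ratio 0.908, 0.838 to 0.985) and at 95.2 against 115 in VitA- (ratio 0.824, 0.778 to 0.874). Stat3 ratios were 0.911 (0.850 to 0.978) and 1.06 (1.0003 to 1.12). The lower Stat3 and Il1r1 in VitA+ changed sign when the sums were scaled by TMM factors, to log2 ratios of 0.028 and 0.022.

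**Figure D2:**
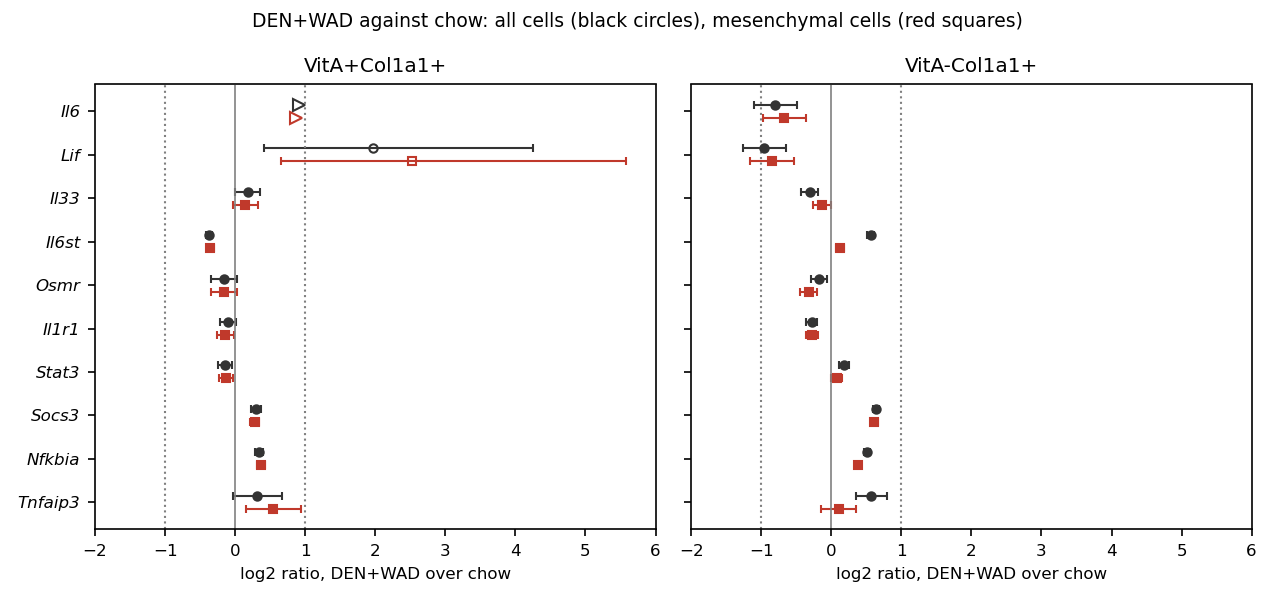
Log2 ratio of DEN+WAD over chow for each gene (x axis) in the VitA+ (left) and VitA- gate (right), over all cells (black circles) and mesenchymal cells (red squares), with 95% counting intervals. Dotted lines mark 2-fold, open symbols are genes under the filter, and open triangles are lower bounds of Il6 against a chow count of 0. Socs3 and Nfkbia lie right of 0 in both gates and all kept genes lie within the dotted lines.

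The cells behind the VitA- sums were not alike in the pair. Mesenchymal cells were divided by whether they had more UMIs of a 10-gene stellate list or of a 10-gene PF list, and the stellate side was 69.9% of mesenchymal cells in VitA- DEN+WAD but 25.5% in VitA- chow, against 99.5% and 100% in the VitA+ pair. Il6st, higher over all VitA- mesenchymal cells in DEN+WAD, was lower on each side taken alone: 308 against 353 CPM on the stellate side (ratio 0.872, 0.819 to 0.930) and 178 against 209 on the fibroblast side (ratio 0.851, 0.804 to 0.901). Il6 was the reverse of its pooled ratio on the fibroblast side, at 14.5 CPM against 11.2 (ratio 1.30, 1.03 to 1.64), while on the stellate side, where it was under the filter, it was at 1.98 against 5.76 (53 against 18 UMIs, ratio 0.344, 0.198 to 0.625). Socs3 was higher in DEN+WAD on both, with ratios of 1.72 (1.60 to 1.85) on the stellate side and 1.24 (1.18 to 1.30) on the fibroblast side. Nfkbia had ratios of 1.37 (1.29 to 1.45) and 1.15 (1.11 to 1.20). On the VitA- stellate side 2 of 9 kept genes passed 2-fold, both higher in DEN+WAD, and 0 passed lower, where 3.46% of 9830 genes were higher and 6.69% lower: Il33 at 42.4 against 8.01 CPM (ratio 5.29, 3.57 to 8.21) and Tnfaip3 at 11.6 against 2.56, the latter from 8 UMIs (ratio 4.53, 2.27 to 10.6). The chow side there was 157 cells with a smooth muscle list at 6729 CPM, against 2861 in DEN+WAD, and without cells rich in that list only 37 chow cells remained and the Il33 ratio was 1.83 (1.15 to 3.09). In those cells Il6 was 24 UMIs in DEN+WAD against 0 in chow, with an interval of the ratio from 0.225 upward. That interval held both 1 and the stellate side ratio of 0.344, so with few chow cells it cannot show whether Il6 was lower there. Lif, Osmr and Il1r1 went from ratios under 1 to 1.46 (0.390 to 12.2), 1.499 (0.930 to 2.59) and 1.17 (0.899 to 1.55), each with an interval that held 1.

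Within single libraries the sides differed in Il6, Lif and Il6st. Il6 was higher on the fibroblast side in each of the 4 libraries that had 50 or more cells there: 14.8 CPM against 0.830 in VitA+ DEN+WAD (56 cells on the fibroblast side), 14.5 against 1.98 in VitA- DEN+WAD, 11.2 against 5.76 in VitA- chow and 17.7 against 10.6 in the labelled VitA-Col1a1- library. The fibroblast side level of Il6 thus lay within 11.2 to 17.7 in all 4, while the stellate side level ran from 0.830 to 10.6. In VitA- DEN+WAD the fibroblast side was 30.1% of mesenchymal cells and held 79.1% of their 254 Il6 UMIs. Lif was also higher on the fibroblast side in all 4, by ratios of 7.45, 1.84, 1.62 and 1.83. Il6st was lower there in all 4, with ratios of 0.486 (0.425 to 0.553), 0.578 (0.552 to 0.604), 0.592 (0.551 to 0.637) and 0.418 (0.403 to 0.434). Cells with more of the PF genes therefore had more Il6 and Lif and less Il6st than cells with more of the stellate genes in these 4 libraries. This did not extend to Il33, whose ratio interval held 1 in VitA+ DEN+WAD (0.821 to 1.41) and in the labelled VitA-Col1a1- library (0.999 to 1.24). Il1r1 ratios lay between 0.934 and 1.06.

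**Figure D3:**
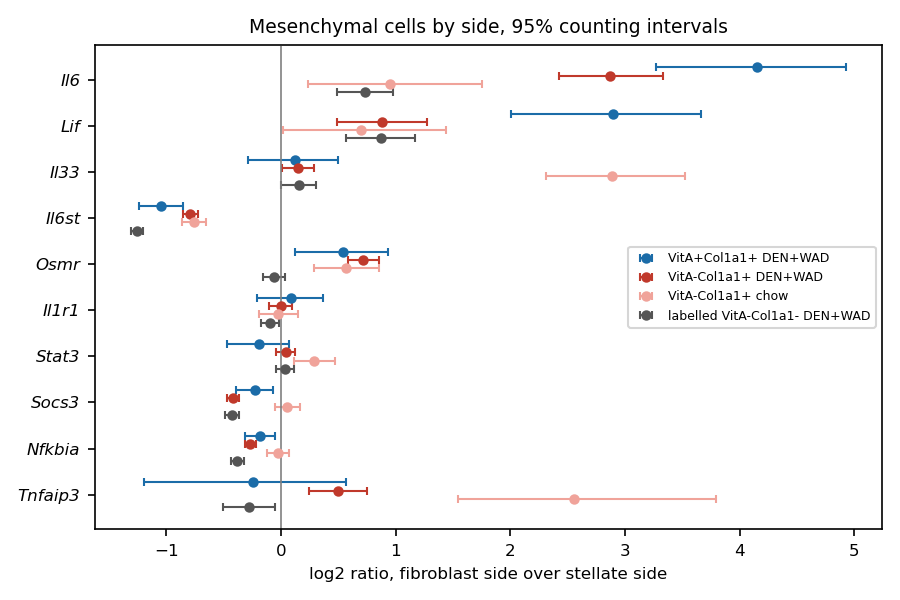
Log2 ratio of the fibroblast side over the stellate side of mesenchymal cells (x axis) for each gene, with 95% counting intervals, in the 4 libraries (colours) with at least 50 cells on each side. Il6 and Lif lie right of 0 and Il6st lies left of 0 in all 4 libraries, while Il33 and Tnfaip3 stand apart in VitA- chow alone.

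Between the gates, Il6 and Lif differed most among the 10 genes. In chow, Il6 was at 9.47 CPM in the VitA- library and at 0 UMIs in the VitA+ library. It was 19.4-fold higher with VitA+ set to its floor of 3 UMIs, with an exact interval of the ratio from 15.6 upward. In DEN+WAD the ratio of VitA- to VitA+ was 5.95 (4.82 to 7.37). Lif ratios were 2.54 (2.13 to 3.04) in DEN+WAD and 19.4 (6.50 to 95.2) in chow, the latter against 3 UMIs. Divided by side, the Il6 ratio of the DEN+WAD gates was 2.39 (1.70 to 3.33) on the stellate side and 0.983 (0.582 to 1.79) on the fibroblast side, where VitA+ had 15 Il6 UMIs. The gates thus differed in Il6 among stellate-side cells, and no difference was detectable at this depth among fibroblast-side cells. The stellate sides also differed in the smooth muscle list, at 2861 CPM in VitA- DEN+WAD against 841 in VitA+ DEN+WAD. Without cells rich in that list, Il6 there was at 1.28 CPM (24 UMIs) against 0.707 (94 UMIs). The part of those cells in the gate difference was not tested. Among the genes that passed the filter over whole libraries, which Il6 and Lif did not, 0 of 8 passed 2-fold in DEN+WAD, where 8.64% of all genes were higher and 1.65% lower in VitA-. In chow 0 of 8 were higher and 1, Il6st, was lower, with a ratio of 0.454 (0.434 to 0.474), where 10.5% of all genes were higher and 5.37% lower. In mesenchymal cells 0 of 8 passed in DEN+WAD, where 6.31% of all genes were higher and 1.52% lower. In chow 2 of 9 passed, where 11% were higher and 6.17% lower. They were Lif, higher in VitA- with a ratio of 29.6 (8.05 to 247) against 2 UMIs, and Il6st, lower with a ratio of 0.405 (0.387 to 0.425). On the chow stellate side 0 of 8 were higher and 2 lower in VitA-, where 868 and 539 of 9853 genes were. They were Il33, at 8.01 CPM against 45.8, and Tnfaip3, at 2.56 (8 UMIs) against 9.60. The VitA- chow cells there numbered 157, with the smooth muscle list at 6729 CPM. These comparisons use the same 4 libraries as the diet comparisons and are not independent of them.

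Among the 3 cell classes read, the endothelial one had the most gp130 transcript, and cells of no class were left out. Pecam1-positive cells (with a Pecam1 UMI, no C1qa UMI and not mesenchymal) carried Il6st at 1443 CPM in VitA+ DEN+WAD, 1365 in VitA- DEN+WAD and 1556 in the labelled VitA-Col1a1- library. These were 3.11 (2.98 to 3.24), 5.18 (5.04 to 5.33) and 2.47 (2.43 to 2.51) times the levels in mesenchymal cells of the same library. The classes held 174, 437 and 1876 cells, with an endothelial list at 10191 to 13515 CPM, and the chow libraries had too few such cells (9 and 38) to be read. Tnfaip3 was also higher in these cells, at 64.2, 66.9 and 68.7 CPM in Pecam1-positive cells, with ratios to mesenchymal cells of 4.60 (3.73 to 5.62), 5.05 (4.44 to 5.74) and 3.22 (2.97 to 3.50). Socs3, Nfkbia, Stat3 and Osmr were also higher in Pecam1-positive than in mesenchymal cells in all 3 libraries, with ratios of 1.17 to 2.14, 1.47 to 1.73, 1.30 to 1.63 and 1.42 to 2.85. Il33 was lower in all 3, with ratios of 0.414 to 0.825. Il6 was at 5 and 11 UMIs, or 0.783 and 0.733 CPM, in these cells of VitA- DEN+WAD and the labelled VitA-Col1a1- library, and at 0 UMIs in those of VitA+ DEN+WAD, which allows a level of up to 1.91 CPM at 3 UMIs.

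C1qa marks macrophages, and C1qa-positive cells (neither mesenchymal nor with a Pecam1 UMI) were found only in the labelled VitA-Col1a1- library, where there were 933. Their Il6st was 36.0 CPM against 629 in mesenchymal cells, a ratio of 0.057 (0.052 to 0.063). Osmr was at 3.82 against 105, Il1r1 at 3.66 against 155, Il33 at 4.24 against 37.3 and Socs3 at 33.8 against 295. These 3 receptors and Socs3 were thus lower in C1qa-positive cells, whereas Il6ra, the subunit that binds IL-6 itself, was at 65.5 against 11.9. The inhibitors of NF-kB were not lower: Tnfaip3 stood at 89.5 against 21.3, a ratio of 4.20 (3.87 to 4.56), and Nfkbia at 380 against 345, a ratio of 1.10 (1.07 to 1.14). Il6 was at 12 UMIs, or 0.998 CPM. It was at 40 UMIs, or 2.12 CPM, in the 1079 cells that were not mesenchymal and had 3 or more C1qa UMIs. That setting did not leave out cells with Pecam1 UMIs, so it is a different and mixed class. Lif was at 2.74 CPM, and at 0.583 CPM under that setting. A macrophage list was at 20951 CPM in this class and a hepatocyte list at 11864, and in the 724 cells with few hepatocyte UMIs Tnfaip3 was at 102 and Il6st at 29.1. C1qa UMIs were also found in 1188 of the 5196 mesenchymal cells of that library, at 121 CPM, and the part of free RNA in the levels of that library was not tested.

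**Figure D4:**
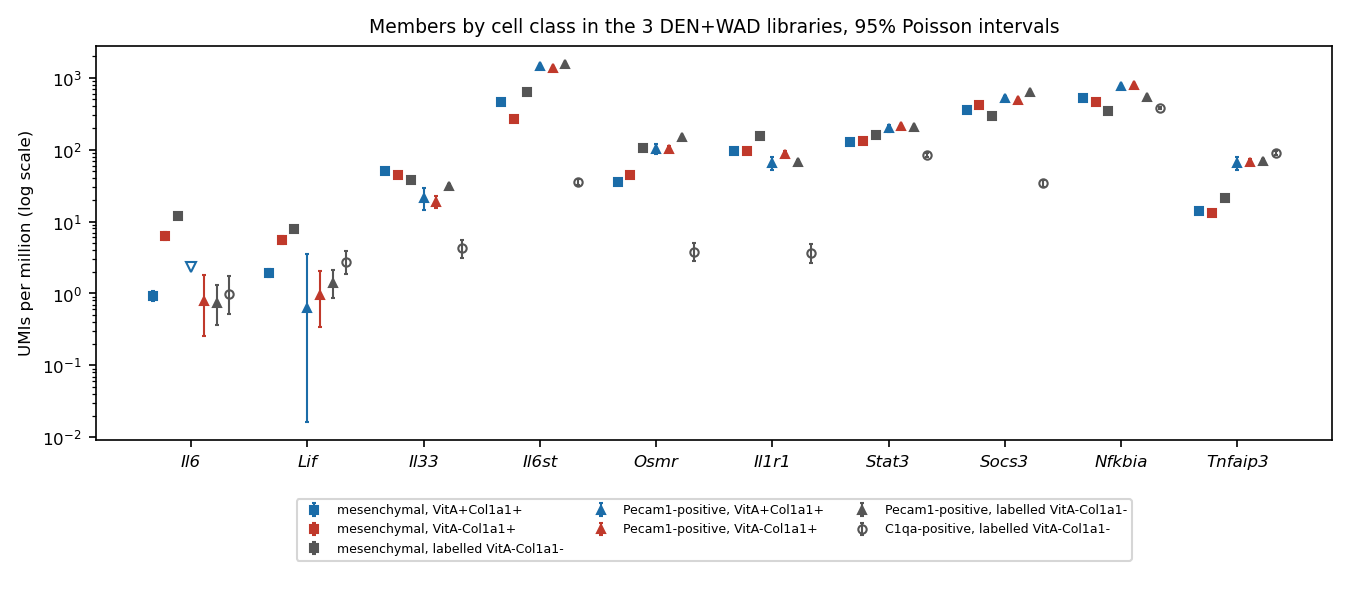
Level of each gene in CPM (log y axis) in mesenchymal (squares), Pecam1-positive (triangles) and C1qa-positive cells (open circles) of the 3 DEN+WAD libraries (colours), with 95% Poisson intervals. The open downward triangle is the upper limit for Il6 at 0 UMIs. Il6st is highest in Pecam1-positive cells in each library, and Il6st, Osmr, Il1r1 and Socs3 are lowest in C1qa-positive cells.

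The share of cells with a UMI was compared after thinning each cell to 2000 UMIs. Il6 was then found in 0.130% of mesenchymal cells of VitA+ DEN+WAD (0.819% unthinned), 0.792% of VitA- DEN+WAD (3.98% unthinned), 1.28% of VitA- chow (6.02% unthinned) and 1.43% of the labelled VitA-Col1a1- library (4.68% unthinned). In Pecam1-positive cells of VitA- DEN+WAD and of the labelled library, it was found in 0.085% and 0.082% (0.458% and 0.160% unthinned). Their median depths were 13623 and 7900.5 UMIs against 17575 and 10920.5 in mesenchymal cells. The part of free RNA in these shares was not tested. In VitA+ chow it was 0 of 247 mesenchymal cells. Il6st was found in 37.5% to 66.3% of mesenchymal cells over the 5 libraries and in 85.9% to 86.3% of Pecam1-positive cells. The top 5% of mesenchymal cells held 95.7% of Il6 UMIs in VitA- chow and all of them in the 3 DEN+WAD libraries. A single cell held up to 29. Under 5% of cells had an Il6 UMI in those 3, and 6.02% in VitA- chow, so these shares were set mostly by the low count. The top 5% held 17.4% to 26.1% of Socs3 UMIs and 14.0% to 21.1% of Il6st UMIs. Both genes had far more UMIs, so the shares cannot show that Il6 was the more concentrated.

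Mesenchymal cells with an Il6 UMI numbered 84, 88 and 243 in the VitA+ DEN+WAD, VitA- DEN+WAD and labelled VitA-Col1a1- libraries. Their median depth was 19624, 22208.5 and 16137 UMIs against 13283, 17340.5 and 10678 in cells without, so levels are given as CPM. Lif was higher in cells with Il6 in all 3, with ratios of 4.15 (2.24 to 7.09), 2.10 (1.31 to 3.21) and 4.02 (3.21 to 5.00). Il33 had ratios of 1.51 (1.27 to 1.79), 2.40 (2.07 to 2.77) and 3.75 (3.39 to 4.15), and Tnfaip3 1.84 (1.34 to 2.46), 3.03 (2.35 to 3.85) and 1.45 (1.20 to 1.75). Socs3 and Il6st were lower in the cells with Il6, with ratios of 0.677, 0.801 and 0.906 for Socs3 and 0.724, 0.770 and 0.801 for Il6st. Il6st was still found in 47.7%, 31.7% and 58.6% of the cells with Il6 after thinning, against 58.6%, 39.5% and 63.3% of those without. Il1r1 was higher in cells with Il6, with ratios of 1.16, 1.22 and 1.21, and Osmr had ratios of 1.25 (0.991 to 1.56), 1.54 (1.29 to 1.82) and 1.21 (1.10 to 1.32). These cells pool both sides, which differed in Il6 and Il6st, and the part of the side in these ratios was not tested.

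Other genes of these pathways were read from 9 fixed lists in mesenchymal cells, DEN+WAD against chow. The list with the highest median in VitA+ was that of 14 NF-kB target chemokines and adhesion genes. There, 6 of the 10 kept were 2-fold or more higher and 0 lower, beside 1.03% and 2.38% of all genes. The median log2 ratio was 1.26 beside -0.06 over all genes. In VitA-, 4 of 13 were higher and 1 lower, beside 2.7% and 4.81% of all genes, with a median of 0.44 beside -0.08. The immediate-early and dissociation list had the same median of 0.44 in VitA- and -0.17 in VitA+. Cxcl2, a neutrophil chemokine, was at 63.7 CPM against 15.2 in VitA+ and 30.6 against 7.93 in VitA-. Ccl7 was at 66.9 against 18.2 in VitA+ and Ccl2, which draws monocytes, at 340 against 88.8 in VitA-. Tnfaip2 was the gene on the list that was lower in VitA-, at 36.5 against 98.9. The list of NF-kB inhibitors that holds Nfkbia and Tnfaip3 had medians of 0.47 and 0.37 with 0 of 9 past 2-fold in each gate, Birc3 being at 52.5 against 29.6 in VitA+ and Tnip2 at 19.9 against 11.2 in VitA-. The 9 NF-kB subunits and kinases had medians of -0.09 and -0.07 with 0 past 2-fold.

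On the STAT3 side, Cebpd, an acute phase transcription factor, was at 1076 CPM against 467 in VitA+ (ratio 2.30, 2.22 to 2.39) and at 984 against 304 in VitA- (ratio 3.23, 3.13 to 3.34). Timp1, a protease inhibitor of fibrotic liver, was at 79.9 against 1.52 in VitA+ (ratio 52.7, 27.8 to 115, chow from 9 UMIs) and at 65.8 against 46.7 in VitA- (ratio 1.41, 1.29 to 1.54). These were the 2 of 10 kept genes of the STAT3 and acute phase list that passed in VitA+, and Cebpd was the 1 of 10 in VitA-, beside 1.03% and 2.7% of all genes that were higher. The JAK and STAT list that holds Stat3 and Socs3 had 0 of 10 past 2-fold in each gate, with medians of -0.01 and 0.15. Among IL-6 family receptors 0 of 6 passed in VitA+, where Lifr was at 345 against 454, and 1 of 7 passed in VitA-, Il6ra at 17.0 against 38.3 (ratio 0.444, 0.397 to 0.498), beside 4.81% of all genes that were lower. No other IL-6 family ligand was kept, 0 of 9 in VitA+ and Il6 and Lif alone in VitA-. The list of IL-1 and TNF ligands and receptors, with Il1r1 and Il33, had 0 of 11 past 2-fold in each gate. Its lowest ratio was that of Tnfrsf1b, a TNF receptor, in VitA+, at 67.4 against 119.

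**Figure D5:**
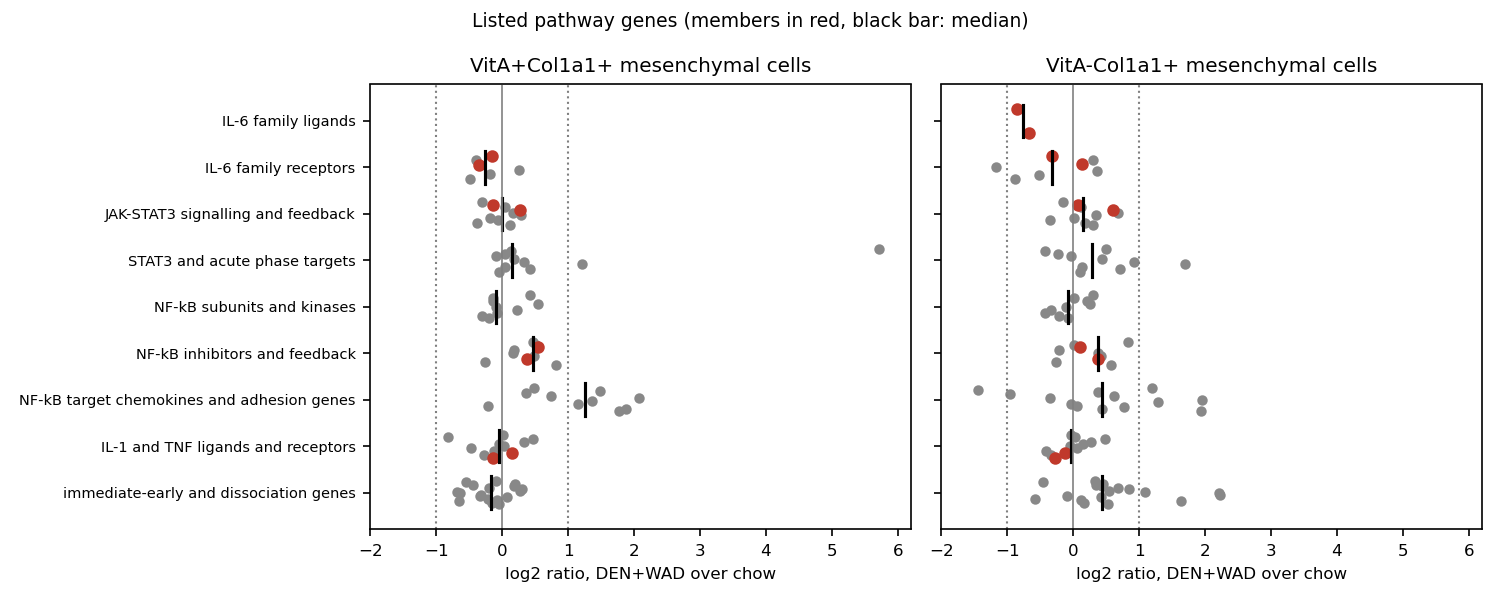
Log2 ratio of DEN+WAD over chow (x axis) in mesenchymal cells of the VitA+ (left) and VitA- gate (right) for every kept gene of the 9 lists (rows), with the 10 genes of interest in red and list medians as black bars. The chemokine list stands furthest right in VitA+, with a median of 1.26, while the red points stay within the dotted 2-fold lines.

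Likeness was described over 9 class-by-library sums of 50 or more cells, as Pearson's r of log2(CPM + 1) across 8830 genes. The sums share libraries and cell classes, and the r are a description only. The genes most like Il6 were Col4a5 (0.98), Ltbp2 (0.97) and Gpr39 (0.97), and Col4a5 was also among the 3 most like Lif (0.96). The genes most like Il6st were Ets1 (0.99), Tacc1 (0.99) and Mxd4 (0.99), and those most like Socs3 were Armcx1 (0.99), Bace2 (0.99) and Rnf215 (0.98). For the other genes the nearest neighbour was S100a6 for Lif, Csrp2 for Osmr, Asap1 for Il1r1, Fam60a for Stat3, Fbxo7 for Nfkbia, Clta for Tnfaip3 and Rftn2 for Il33.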

How the data were processed

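Single-cell RNA sequencing had been performed on 5 sorted fractions of mouse liver, 1 library each, by a droplet method (10x Genomics, aim of 10000 cells each). The authors aligned reads to mm10 and counted UMIs with Cell Ranger, version 3.1.0 in the headers of the 4 Col1a1+ libraries and 6.1.2 in that of the library labelled VitA-Col1a1-. The labels name more than 1 version of the 3' kit for the same libraries, a conflict that no source used here settles. What the authors deposited are UMI counts for each gene in each barcode, not normalized, and every barcode was used as a cell, the lowest total being 500 UMIs. No doublet caller was run.

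Counts of a gene were summed over the cells of a library or class, divided by the total and scaled to 1000000 (CPM). Levels carry exact Poisson 95% intervals, ratios conditional binomial intervals and shares Clopper-Pearson intervals. UMIs are not independent of droplet and sort, so all cover counting error only, and the library totals (6145748 to 149936344 UMIs) set their width. A count of 0 was given a floor of 3 UMIs. Genes with a mean of 5 CPM or more over a pair were kept, and 2-fold or more was called past the rule. Shares were expected values after thinning each cell to 2000 UMIs, which left out 172, 106, 4, 21 and 1439 cells (VitA+Col1a1+ DEN+WAD, VitA-Col1a1+ DEN+WAD, VitA+Col1a1+ chow, VitA-Col1a1+ chow, labelled VitA-Col1a1-). Classes of under 50 cells were not read, except for the 37 VitA- chow cells left on the stellate side without cells rich in the smooth muscle list. The scripts were tested on simulated data. Python 3.11.15, numpy 2.4.6, scipy 1.17.1, pandas 2.3.3, matplotlib 3.10.9 and, for TMM factors only, edgeR 4.0.16 in R 4.3.3 were used. Gene positions came from GENCODE M21, by Ensembl identifier (31011 of 31053 found), and promoters from RefSeq on GRCm38.p6 (10 of 10 genes matched).

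The genes, lists and alternatives were chosen with earlier results of these data known. Named genes were the 10 genes, the marker genes of the classes and, per list and gate, the 2 highest and 2 lowest ratios in mesenchymal cells, of which those past 2-fold and a few others are given.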

Additional observations from a re-analysis of the deposited data

Results flagged for a closer look

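Il6st was set apart because its diet ratios had opposite signs in the gates with counting intervals that did not hold 0. The log2 ratio of DEN+WAD over chow in mesenchymal cells was -0.35 in VitA+Col1a1+ and 0.13 in VitA-Col1a1+, and the difference was not tested, since each gate had 1 library per condition. On the stellate side alone the VitA- value was -0.20.

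Stat3 was set apart for the same reason, at -0.13 in VitA+Col1a1+ and 0.079 in VitA-Col1a1+, and this difference was not tested either. With TMM scaling the VitA+ value became 0.028.

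Col1a1 was at 1062 CPM in the library labelled VitA-Col1a1-, which no diet comparison used, a level above that of both VitA+Col1a1+ libraries.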

How the results depend on the processing

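With 1 library per group nothing here measures variation between animals, and a gene near 1 CPM, such as Il6 in VitA+ (137 UMIs), rests on few counts. No paired analysis was run, since each group had a single library. The number of genes past the 2-fold rule stayed within 1.5 times of the reported one in 46 recalculations and moved further in 10. Without the filter on low genes it became 1 (Lif, higher in DEN+WAD) in VitA+Col1a1+, for libraries and for mesenchymal cells, 2 (Il6 and Lif, higher in VitA-) for the gates in DEN+WAD, and 2 (Il6st and Lif) for the gates in chow, as it also did without barcodes shared between libraries. Il6 against a count of 0 was never counted there, although it was 19.4-fold higher in VitA- chow with VitA+ set to its floor. In the VitA-Col1a1+ libraries it became 1 (Lif, lower in DEN+WAD) with the mean over cells of each cell's level and without the top 5% of cells by UMIs. A 1.5-fold rule gave 3 (Il6 and Lif lower, Socs3 higher) in VitA-Col1a1+ libraries and mesenchymal cells alike, and the stellate side alone gave 2 (Il33 and Tnfaip3, higher).

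Some small ratios changed sign. TMM scaling gave log2 ratios of DEN+WAD over chow in VitA+ of 0.041 for Stat3 (libraries), 0.028 for Stat3 and 0.022 for Il1r1 (mesenchymal cells), and of -0.072 for Stat3 between VitA- and VitA+ in DEN+WAD. Il6st in VitA- mesenchymal cells was -0.20 on the stellate side only. Il1r1 on the VitA- stellate side was 0.23 without cells rich in the smooth muscle list, an alternative chosen after seeing the data, as was the one without hepatocyte-rich C1qa-positive cells. Of the recalculated class ratios, 115 stayed within their interval, 51 moved beyond it and 0 changed sign. Shares of cells with a UMI moved beyond their interval in 94 recalculations and not in 6, since no thinning or a deeper thinning raises them by construction.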
